A study of Capra hircus with 3 samples.

Results

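The SLC25 family of mitochondrial carriers was read in goat liver, cell class by cell class, in steatohepatitis, in steatohepatitis tolerance and in healthy animals. Its members were taken by symbol: 38 of the 27271 genes in the count matrices have a symbol that begins with SLC25A, and all 38 had at least 1 UMI (unique molecular identifier, 1 captured transcript molecule) in a kept cell. SLC25A5, SLC25A16, SLC25A18, SLC25A24, SLC25A26, SLC25A30, SLC25A39, SLC25A40, SLC25A51 and SLC25A52 were not analysed here. The libraries came from livers of female goats aged 3 to 4 years. Goats with non-alcoholic steatohepatitis (NASH) and goats of a steatohepatitis tolerance group (NASH-T) had been fed the HRDS diet, and healthy goats (Con) the LRDS diet. Livers of 5 goats were pooled for each group, dissociated with trypsin and run as 1 droplet library that reads the 3′ ends of polyadenylated RNA in single cells. With 1 library a group, the group, the pool of animals and the handling of the library cannot be told apart, there is no replicate check, and no test is given. Intervals in parentheses are exact 95% intervals and cover counting error only.

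SLC25 carriers sit, nearly all of them, in the inner mitochondrial membrane and exchange small molecules between the matrix and the cytosol. In the liver they carry metabolites that link mitochondria to fat synthesis, the urea cycle, gluconeogenesis and the movement of reducing equivalents. The citrate carrier SLC25A1 brings out the citrate from which cytosolic acetyl-CoA and then fatty acids are made. The aspartate/glutamate exchangers SLC25A12 (aralar) and SLC25A13 (citrin) are part of the malate-aspartate shuttle, and citrin also brings out aspartate used by the urea cycle. SLC25A15 exchanges ornithine for citrulline within that cycle, SLC25A20 brings acylcarnitines in for oxidation, and SLC25A4 exchanges ADP for ATP.

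After filtering, 8389 NASH, 8914 NASH-T and 7200 Con cells remained, with a median of 2472 UMIs per cell in NASH, 2127.5 in NASH-T and 2392.5 in Con. Between 20 and 23 barcodes were shared by any pair of libraries. Clusters named from marker genes gave 6 classes with at least 50 cells in every library: hepatocyte-like (4063 NASH, 3119 NASH-T and 2861 Con cells), T- or NK-cell-like, macrophage-like, endothelial-like, stellate- or fibroblast-like and B cell-like. Expression is given as CPM, a gene's UMIs per 1000000 UMIs of its class in that library. CPM of UMIs is not per length, so levels are compared within a gene only. Hepatocyte transcripts were also counted in the other classes, where ALB, the albumin gene, stood at 24.2% to 50.6% of its own hepatocyte-like level, and the highest of 12 such transcripts at 159%. A carrier at such a share outside hepatocyte-like cells is not read as expressed there, and the source of its UMIs was not tested.

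**Figure D1:**
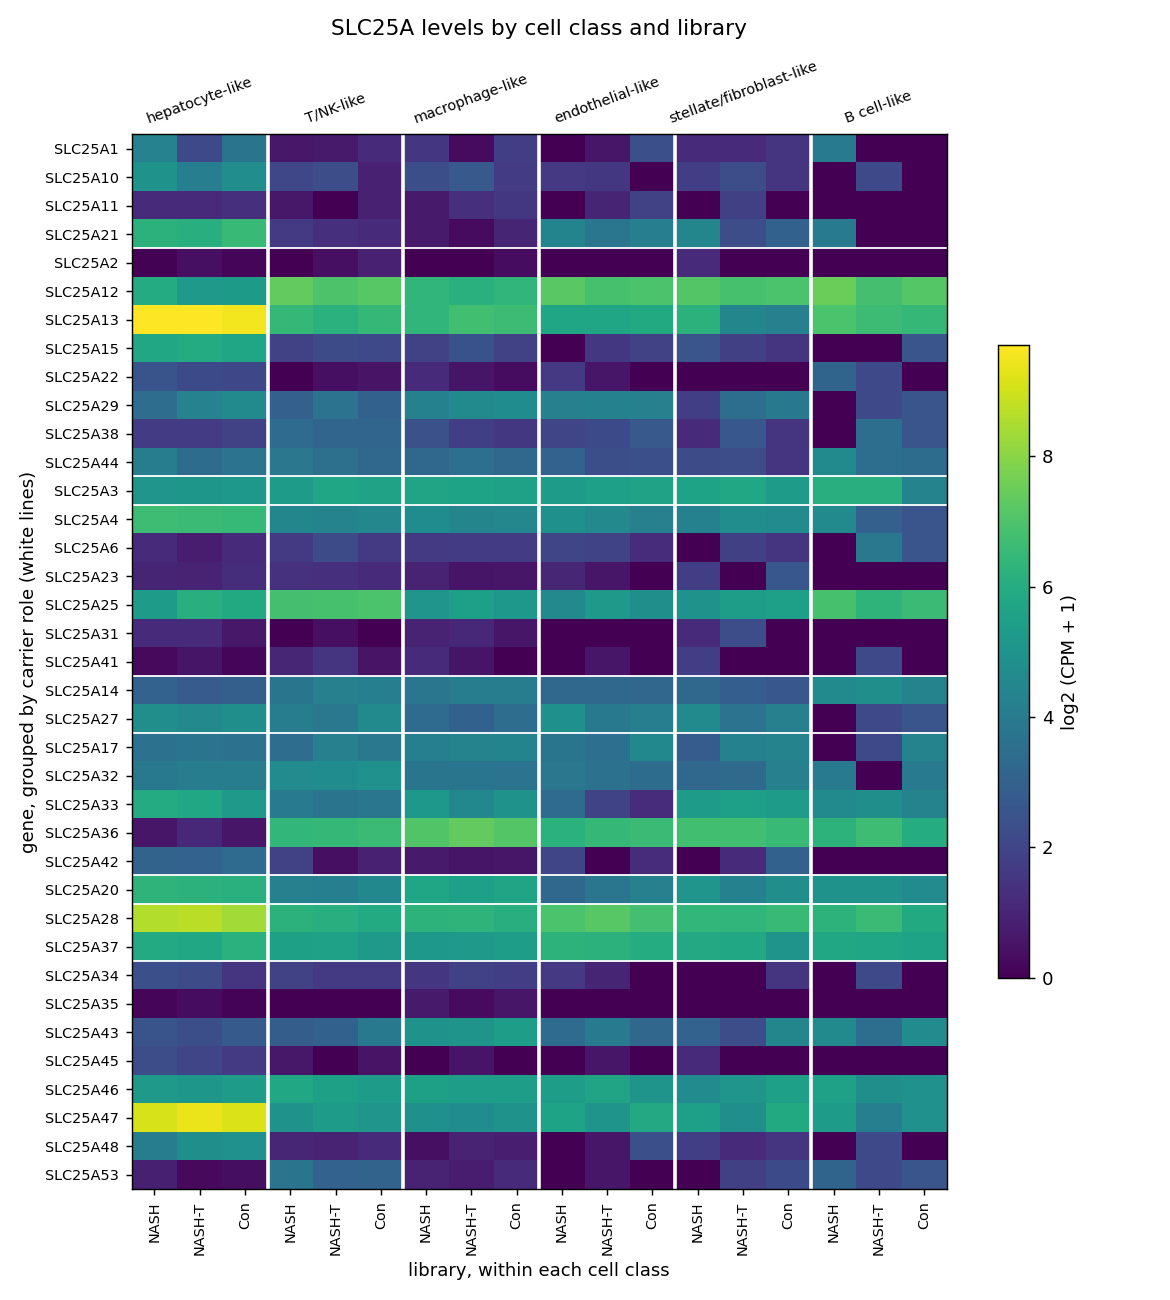
Levels of the SLC25A genes, as log2 (CPM + 1), in 6 cell classes and 3 libraries (NASH, NASH-T and Con from left to right within each class), with the genes ordered by carrier role. SLC25A13, SLC25A28 and SLC25A47 are bright in the hepatocyte-like columns, while SLC25A36 is dark there and bright in the other 5 classes.

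Across cell classes, the family divided into carriers that were high in hepatocyte-like cells and a smaller set that was higher outside them. Summed over the 38 members, the level in hepatocyte-like cells was 2553 CPM in NASH, 2669 CPM in NASH-T and 2431 CPM in Con. In the other classes the sum lay between 725 CPM (NASH-T stellate- or fibroblast-like cells) and 994 CPM (NASH B cell-like cells). Of the members with at least 20 UMIs in their top class in each library, 12 were highest in hepatocyte-like cells in every library, 3 in macrophage-like cells and 1 in T- or NK-cell-like cells.

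The carriers of citrin-dependent and urea-cycle traffic were strongly hepatocyte-enriched. SLC25A13 had 830.4 CPM in NASH, 827 CPM in NASH-T and 742 CPM in Con hepatocyte-like cells. That was 6.73 times the next class in NASH, 7.74 times in NASH-T and 7.47 times in Con. SLC25A15, the ornithine carrier, had 53.9 CPM in NASH, 61.8 CPM in NASH-T and 52 CPM in Con hepatocyte-like cells, at least 10.7 times the next class in each library. Its highest level elsewhere was 4.91 CPM, in NASH stellate- or fibroblast-like cells.

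SLC25A45, SLC25A47 and SLC25A48, whose functions are less settled, showed the same enrichment. SLC25A47, a liver-enriched carrier in humans and mice, had 556 CPM in NASH, 686 CPM in NASH-T and 582 CPM in Con hepatocyte-like cells. It stood at 11.3 times the next class in NASH, 17.4 times in NASH-T and 10.0 times in Con. SLC25A48, linked in humans and mice to choline, was at least 6.64 times the next class in every library, and SLC25A45 at least 3.2 times. SLC25A29, the next protein-coding gene to SLC25A47 on the RefSeq assembly ARS1.2, did not share this pattern: it was highest in macrophage-like cells in every library, at 1.03, 1.27 and 1.03 times the next class in NASH, NASH-T and Con.

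Among the other exchangers, SLC25A4, SLC25A10 (the dicarboxylate carrier for malate and succinate) and SLC25A21 (an oxodicarboxylate carrier) also stood at least 3 times above the next class in each library. SLC25A4 had 102 CPM in NASH, 96.5 CPM in NASH-T and 88.4 CPM in Con hepatocyte-like cells. SLC25A21 had 73.6 CPM in NASH, 67.5 CPM in NASH-T and 90.7 CPM in Con hepatocyte-like cells. SLC25A28 (mitoferrin-2, an iron carrier) was near that limit, at 3.14 times the next class in NASH, 2.87 in NASH-T and 2.98 in Con. SLC25A20 was less enriched, at 1.51 times macrophage-like cells in NASH, 1.74 in NASH-T and 1.45 in Con.

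SLC25A36, a pyrimidine nucleotide carrier, was nearly missing from hepatocyte-like cells and present in every other class. It had 10 UMIs in NASH, 18 in NASH-T and 7 in Con hepatocyte-like cells, or 0.504 CPM in NASH, 1.18 CPM in NASH-T and 0.489 CPM in Con. In macrophage-like cells it had 131 CPM in NASH, 166 CPM in NASH-T and 137 CPM in Con. In the remaining classes it lay between 63.2 CPM (Con B cell-like cells) and 107 CPM (NASH stellate- or fibroblast-like cells). With every cell thinned to 1000 UMIs, a UMI of SLC25A36 was held by 12.5% (10.7 to 14.5) of NASH, 15.4% (13.5 to 17.4) of NASH-T and 12% (10.3 to 13.9) of Con macrophage-like cells. In hepatocyte-like cells the thinned share was 0.0778% (0.016 to 0.227) in NASH, 0.0685% (0.00829 to 0.247) in NASH-T and 0.0745% (0.00902 to 0.269) in Con. Levels and thinned shares thus gave the same order of these classes in each library.

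Related carriers differed between classes in their shares of a pair's UMIs, in pairs chosen after their levels were seen. Of the UMIs of the pyrimidine carriers SLC25A36 and SLC25A33, SLC25A36 took 0.809% (0.389 to 1.48) in NASH, 2.15% (1.28 to 3.37) in NASH-T and 1.34% (0.539 to 2.73) in Con hepatocyte-like cells, against 70.1% to 98.6% over the other classes and libraries. Of the UMIs of the aspartate/glutamate exchangers, SLC25A12 took 6.93% (6.56 to 7.32) in NASH, 4.31% (3.97 to 4.67) in NASH-T and 4.83% (4.44 to 5.24) in Con hepatocyte-like cells. In the other classes the SLC25A12 share was 39.9% to 87.5%, with macrophage-like cells at 49.9% in NASH, 39.9% in NASH-T and 45.4% in Con. SLC25A13 lay under the share reached by ALB outside hepatocyte-like cells. The source of its UMIs there was not tested. For the mitoferrins the difference was weaker: SLC25A37 took 13.5% (12.8 to 14.2) in NASH, 12% (11.2 to 12.8) in NASH-T and 17.9% (16.9 to 18.9) in Con hepatocyte-like cells, and 25% to 45.5% elsewhere. A share within a pair is not corrected for transcript length, so it is compared between classes only. The Con hepatocyte-like interval of the SLC25A37 share lay within that of Con stellate- or fibroblast-like cells, 25% (15.5 to 36.6).

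**Figure D2:**
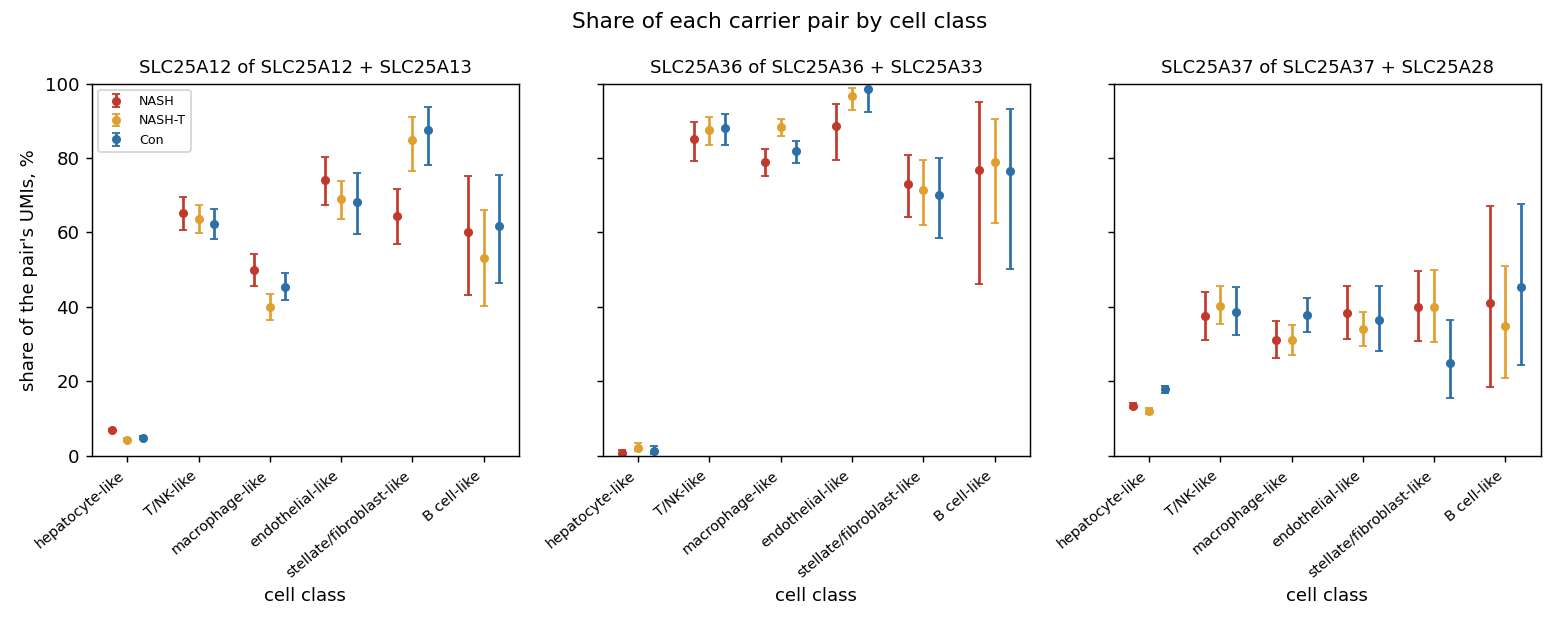
Share of the UMIs of 3 carrier pairs taken by the first gene named, in percent, by cell class, with exact 95% binomial intervals (NASH, NASH-T and Con from left to right in each class). The SLC25A12 share lies at 4.31% to 6.93% in hepatocyte-like cells and at 39.9% to 87.5% elsewhere, and the SLC25A36 share at 0.809% to 2.15% and 70.1% to 98.6%.

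SLC25A12 was higher outside hepatocyte-like cells by its own level too. It had 61.9 CPM in NASH, 37.2 CPM in NASH-T and 37.6 CPM in Con hepatocyte-like cells. In T- or NK-cell-like cells it had 163 CPM in NASH, 128 CPM in NASH-T and 146 CPM in Con. SLC25A12 and SLC25A36 exceeded, as a share of their hepatocyte-like level, each of the 12 hepatocyte transcripts in all 5 other classes and all 3 libraries. In macrophage-like cells SLC25A3, SLC25A14, SLC25A17, SLC25A29, SLC25A43 and SLC25A46 also exceeded them, and in T- or NK-cell-like cells SLC25A25, SLC25A38 and SLC25A53 did. SLC25A32 also lay above them there by its level, at 1.61 times the next class in NASH, 1.58 in NASH-T and 1.65 in Con. The highest transcript in T- or NK-cell-like cells stood at 159% (NASH), 124% (NASH-T) and 118% (Con) of its hepatocyte-like level.

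SLC25A43, a carrier without a settled substrate, was highest in macrophage-like cells. It had 29.8 CPM in NASH, 31.1 CPM in NASH-T and 41 CPM in Con macrophage-like cells, against 4.74 CPM in NASH, 4.01 CPM in NASH-T and 5.8 CPM in Con hepatocyte-like cells. SLC25A25, a calcium-regulated carrier that exchanges ATP-Mg for phosphate, had 113 CPM in NASH, 118 CPM in NASH-T and 123 CPM in Con T- or NK-cell-like cells. SLC25A32, a folate and flavin carrier, was highest in T- or NK-cell-like cells, at 24.9 CPM in NASH, 25.5 CPM in NASH-T and 29 CPM in Con. The phosphate carrier SLC25A3, needed for ATP synthesis in mitochondria, lay between 32.5 CPM (NASH hepatocyte-like cells) and 55 CPM (NASH-T stellate- or fibroblast-like cells) in every class and library apart from B cell-like cells.

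The first comparison of conditions set hepatocyte-like cells of goats with steatohepatitis against those of healthy goats. A member was measured when both libraries together held at least 20 of its UMIs, and was called when the ratio reached 1.5, upward or downward, and its interval left out 1. In NASH over Con, 34 members were measured, of which 6 were higher (background over all genes 5.24%) and 3 were lower (11.3%). The median log2 ratio was -0.026 over the members and -0.12 over all 13294 genes measured. The members called higher were SLC25A1, SLC25A12, SLC25A31, SLC25A33, SLC25A34 and SLC25A45, and those called lower were SLC25A25, SLC25A29 and SLC25A48. In the 3 clusters shared by all libraries, 1 member was called higher (SLC25A31; background there 4.97%) and 2 lower (SLC25A25 and SLC25A29; 7.84%). With each ratio divided by the median ratio of all genes, 8 members were higher (background 7.03%) and 2 lower (7.94%).

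NASH-T over Con gave fewer calls. Again 34 members were measured, with 1 higher, SLC25A34 (background 4.63%), and 2 lower, SLC25A1 and SLC25A10 (8.07%). The median log2 ratio was -0.056 over the members and -0.10 over all genes. In the shared clusters 2 members were higher, SLC25A34 among them (background 4.59%), and SLC25A1 and SLC25A10 were the 2 lower (7.93%). Divided by the median ratio of all genes, 4 members were higher (background 6.2%) and 1 lower (5.5%). This comparison and the one of NASH with Con share the Con library.

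NASH-T over NASH, the contrast within the HRDS diet, had 4 of 34 members higher (SLC25A25, SLC25A29, SLC25A36 and SLC25A48; background 8.08%) and 4 lower (SLC25A1, SLC25A10, SLC25A12 and SLC25A44; background 4.92%). The median log2 ratio was -0.088 over the members and 0.0034 over all genes. In the shared clusters 2 members were higher, SLC25A25 among them (background 5.3%), and 1, SLC25A1, was lower (4.96%). Over the 3 comparisons 12 members were called at least once, a count for which no share over all genes is given. A further 22 were measured in all 3 and called in none, with ratios between 0.523 and 1.46. SLC25A3, SLC25A6, SLC25A14, SLC25A23, SLC25A27, SLC25A43, SLC25A46 and SLC25A47 are among these 22, beside those described by role. Within the shared clusters SLC25A47 had NASH-T over NASH ratios of 1.74 (1.64 to 1.86) in cluster 0, 1.81 (1.69 to 1.94) in cluster 1 and 1.39 (1.2 to 1.61) in cluster 3. Its NASH over Con ratios there were 0.638 (0.596 to 0.683), 0.669 (0.622 to 0.718) and 0.974 (0.847 to 1.12). In clusters 13 and 22, held mostly by NASH cells, it had 591 and 657 CPM in NASH. SLC25A2, SLC25A35 and SLC25A41 were not measured in any, and SLC25A53 was not measured in all.

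**Figure D3:**
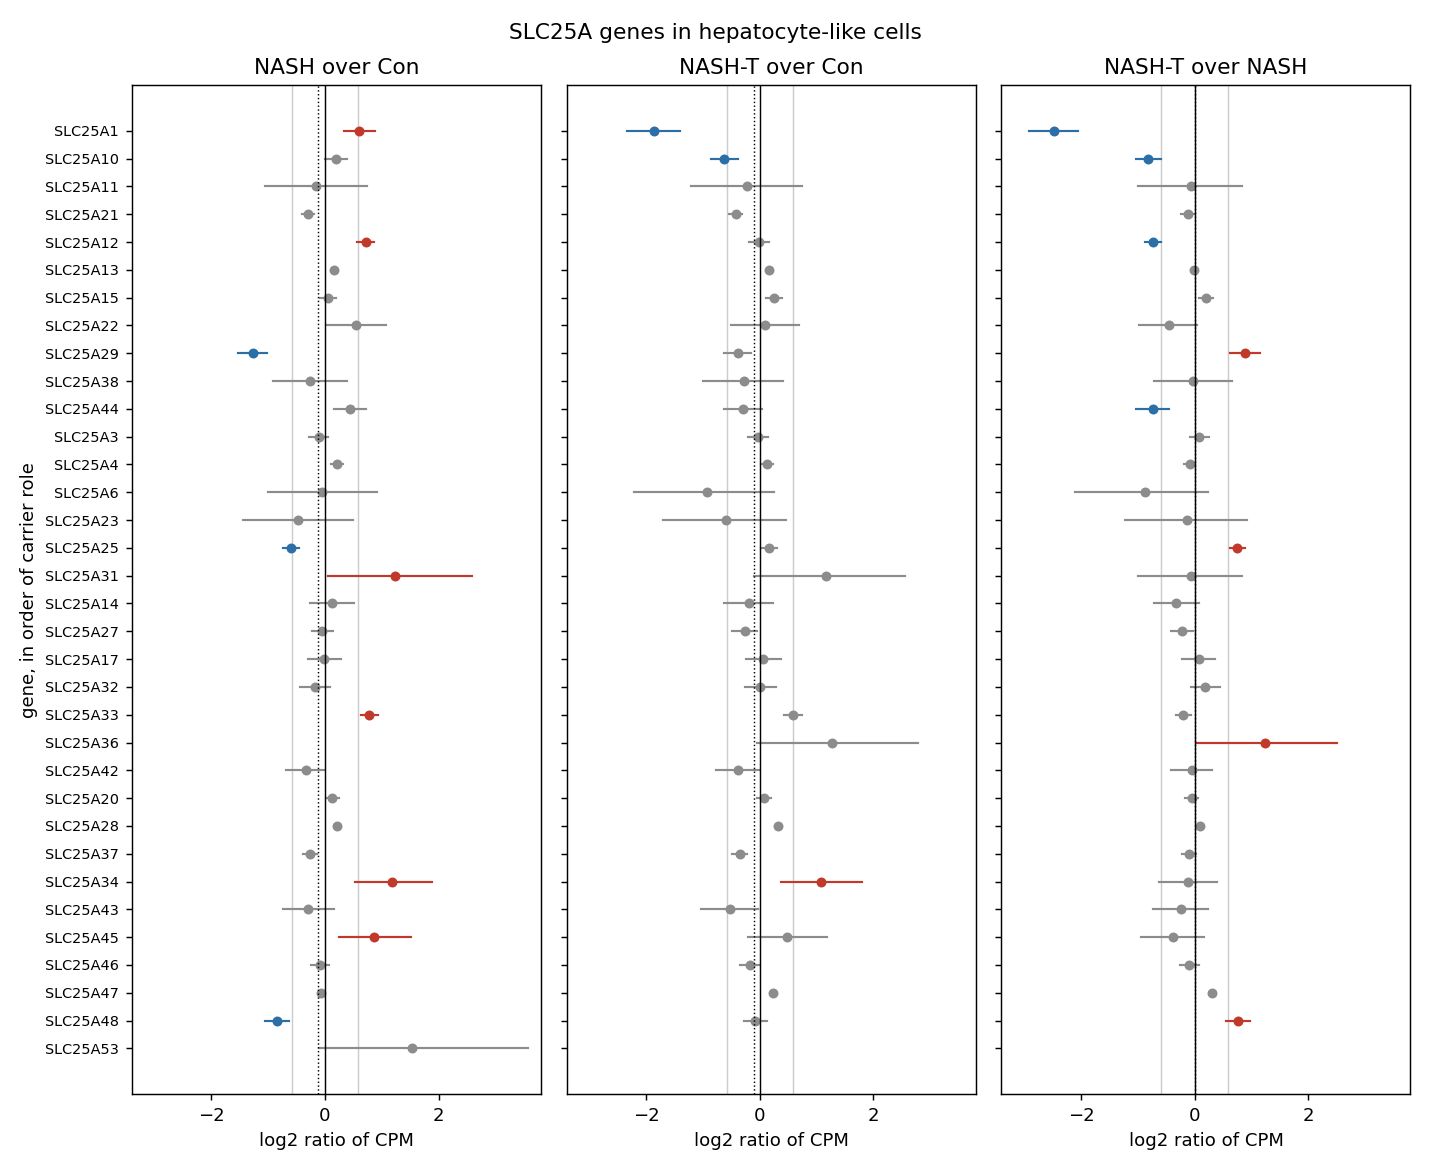
Log2 ratio of CPM in hepatocyte-like cells for SLC25A genes in 3 comparisons, with exact 95% counting intervals. Red points were called higher and blue points lower, grey vertical lines mark 1.5-fold, and the dotted line is the median of all genes. SLC25A1 stands at 0.61 in NASH over Con, at -1.87 in NASH-T over Con and at -2.47 in NASH-T over NASH.

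The citrate carrier SLC25A1 (ENSCHIG00000015498) had the ratio farthest from 1 of any member measured in both NASH-T comparisons. It had 369 UMIs in NASH, 51 in NASH-T and 175 in Con hepatocyte-like cells, or 18.6 CPM (16.8 to 20.6) in NASH, 3.36 CPM (2.5 to 4.41) in NASH-T and 12.2 CPM (10.5 to 14.2) in Con. The 3 intervals did not overlap: NASH was the highest library and NASH-T the lowest. The ratio was 1.52 (1.27 to 1.83) for NASH over Con, 0.275 (0.197 to 0.377) for NASH-T over Con and 0.18 (0.132 to 0.242) for NASH-T over NASH. A UMI of it was found in 8.37% (7.53 to 9.26) of NASH, 1.6% (1.19 to 2.11) of NASH-T and 5.87% (5.04 to 6.8) of Con hepatocyte-like cells. With every cell thinned to 1000 UMIs, which left 67 UMIs in NASH, 13 in NASH-T and 26 in Con, the order of libraries was kept and the ratio for NASH-T over Con was 0.46 (0.217 to 0.927). Outside hepatocyte-like cells the gene had few UMIs, such as 6 in NASH, 1 in NASH-T and 10 in Con macrophage-like cells.

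The low level of SLC25A1 in NASH-T was seen in the hepatocyte-like clusters 0 and 1. In cluster 0, led by the urea-cycle gene CPS1, it had 16.3 CPM in NASH, 2.46 CPM in NASH-T and 11.4 CPM in Con. In cluster 1, whose leading genes include FMO1, it had 16.3 CPM in NASH, 3.9 CPM in NASH-T and 12.9 CPM in Con. NASH-T over Con was 0.215 (0.11 to 0.394) in cluster 0 and 0.303 (0.197 to 0.455) in cluster 1. In cluster 3, with a median of 1510 UMIs per cell, the ratio was 0.455 (0.134 to 1.24), an interval that holds 1, on 5 UMIs in NASH-T. Of the NASH hepatocyte-like cells, 42.7% lay in cluster 13 and 25.4% in cluster 22, where NASH-T and Con had few cells. SLC25A1 had 18.9 CPM in cluster 13 and 19.9 CPM in cluster 22 of NASH. In the clusters shared by all 3 libraries the ratio for NASH over Con was 1.39 (1.07 to 1.79), below the 1.5-fold limit.

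**Figure D4:**
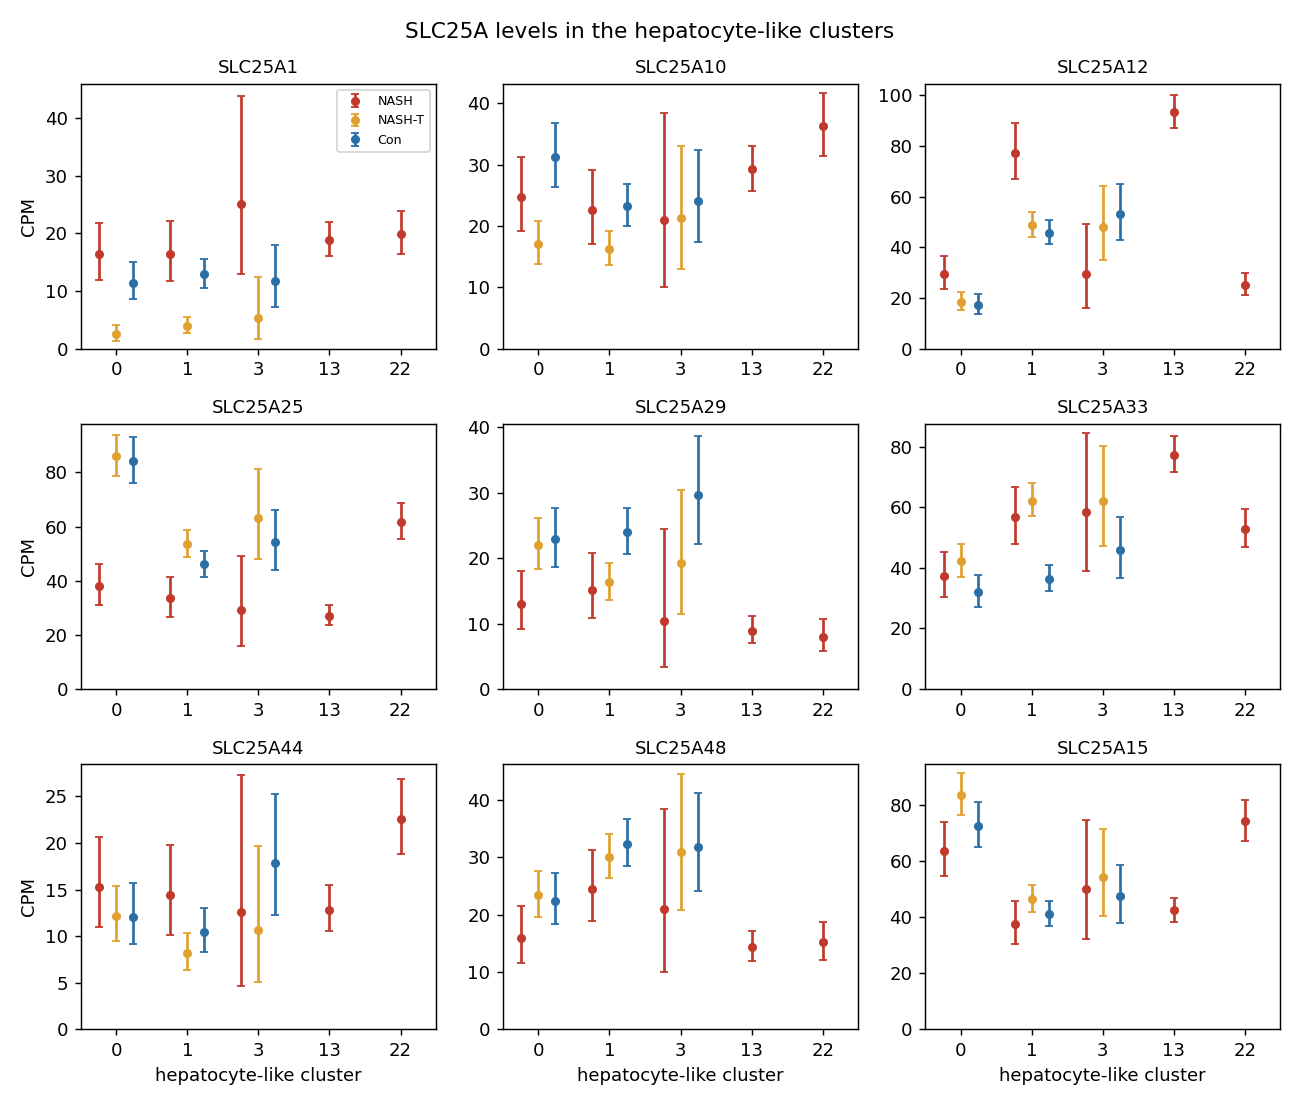
CPM of 9 SLC25A genes in hepatocyte-like clusters 0, 1 and 3, shared by all 3 libraries, and in clusters 13 and 22, drawn for NASH only, with exact 95% Poisson intervals (NASH, NASH-T and Con from left to right). SLC25A1 in NASH-T lies at 2.46 and 3.9 CPM in clusters 0 and 1, under the NASH and Con points, and SLC25A12 is lower in cluster 0 than in cluster 1 in each library.

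Genes of the route from citrate to fatty acid did not follow SLC25A1 when NASH-T was set over Con. Of the list from citrate to fatty acid, 8 genes were measured. In NASH over Con, 7 were higher (background over all genes 5.24%) and 0 lower (11.3%), with a median log2 ratio of 1.99. In NASH-T over Con, 7 were higher (background 4.63%) and 0 lower (8.07%), the median being 1.30. ACLY, the enzyme that splits cytosolic citrate, had 101 CPM in NASH, 48.8 CPM in NASH-T and 22.5 CPM in Con. Its ratio was 4.48 (3.98 to 5.05) in NASH over Con and 2.17 (1.9 to 2.48) in NASH-T over Con.

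Further along that route, FASN (fatty acid synthase) had a NASH-T over Con ratio of 2.81 (2.51 to 3.14), SCD (stearoyl-CoA desaturase) of 7.42 (5.18 to 10.9) and ACSS2, which makes acetyl-CoA from acetate, of 3.08 (2.75 to 3.46). Citrate synthase (CS), which makes citrate in the matrix, had a ratio of 1.2 (1.01 to 1.43) and was not called. In NASH-T, SLC25A1 lay below Con while ACLY, ACACA, FASN, ME1, ACSS2, SCD and ELOVL6 lay above it. In NASH-T over NASH, where SLC25A1 was lower, 5 of the 8 were lower too (background 4.92%), namely ACLY, ACACA, FASN, ACSS2 and SCD.

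**Figure D5:**
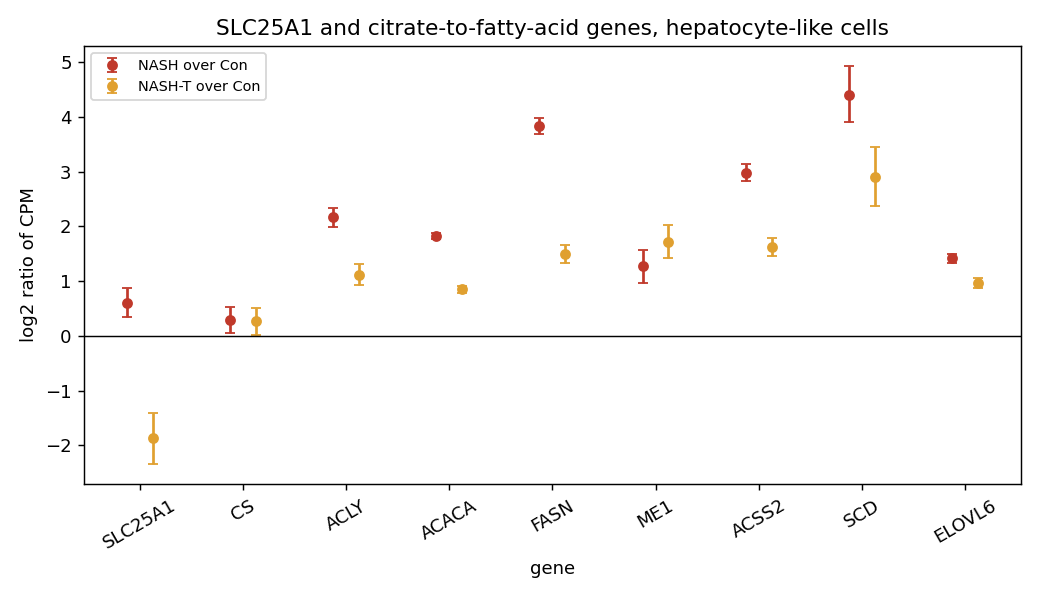
Log2 ratio of CPM over Con in hepatocyte-like cells for SLC25A1 and 8 genes of the route from citrate to fatty acid (NASH over Con and NASH-T over Con for each gene), with exact 95% counting intervals. In NASH-T over Con, SLC25A1 is at -1.87 and the 8 enzymes lie above 0.

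SLC25A10, the dicarboxylate carrier, was the other carrier of this role called lower in NASH-T. It had 29.5 CPM in NASH, 16.8 CPM in NASH-T and 25.8 CPM in Con, with a ratio of 0.649 (0.551 to 0.764) for NASH-T over Con and 0.569 (0.489 to 0.66) for NASH-T over NASH. NASH-T over Con was 0.545 (0.417 to 0.711) in cluster 0, 0.698 (0.554 to 0.878) in cluster 1 and 0.889 (0.495 to 1.54) in cluster 3. In the shared clusters NASH-T over NASH was 0.719 (0.581 to 0.893), inside the 1.5-fold limit. SLC25A21 was not called, with ratios of 0.811 (0.752 to 0.875) in NASH over Con and 0.745 (0.685 to 0.809) in NASH-T over Con. Its NASH-T over Con ratio was 0.657 (0.571 to 0.757) in cluster 0, past the 1.5-fold limit. It was 0.796 (0.712 to 0.89) in cluster 1 and 0.744 (0.543 to 1.01) in cluster 3. The oxoglutarate/malate carrier SLC25A11 had 26 UMIs in NASH, 19 in NASH-T and 21 in Con.

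Among the amino acid carriers, SLC25A12 was higher in NASH and SLC25A29 lower. SLC25A12 had a ratio of 1.64 (1.48 to 1.82) for NASH over Con, 0.989 (0.877 to 1.12) for NASH-T over Con and 0.602 (0.544 to 0.665) for NASH-T over NASH. Its partner SLC25A13 was not called, at 1.12 (1.09 to 1.15) for NASH over Con. In NASH the level of SLC25A12 was 93.5 CPM in cluster 13 and 25.3 CPM in cluster 22. Within clusters 0 and 1 the NASH over Con ratio was 1.69 (1.22 to 2.33) and 1.69 (1.41 to 2.01), and in cluster 3 it was 0.551 (0.29 to 0.971) on 14 UMIs in NASH. Over the 3 shared clusters together it was 1.34 (1.16 to 1.55), under the 1.5-fold limit that clusters 0 and 1 each passed. Clusters 0 and 1 held 541 and 425 NASH cells, and 884 and 1229 Con cells. The level of SLC25A12 was lower in cluster 0 than in cluster 1 in both libraries. The part of this cell mix in the pooled ratio was not tested.

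SLC25A29, a carrier of basic amino acids such as arginine and lysine, had 10.0 CPM (8.69 to 11.5) in NASH, 18.5 CPM (16.4 to 20.8) in NASH-T and 24.2 CPM (21.8 to 26.9) in Con. The 3 intervals were apart, with NASH lowest and Con highest. The ratio was 0.414 (0.346 to 0.494) for NASH over Con and 1.84 (1.53 to 2.22) for NASH-T over NASH. NASH over Con was 0.571 (0.379 to 0.841) in cluster 0, 0.633 (0.436 to 0.897) in cluster 1 and 0.353 (0.11 to 0.876) in cluster 3, below 1 in each. In NASH the level was 8.84 CPM in cluster 13 and 7.94 CPM in cluster 22. NASH-T over NASH was 1.35 (1.05 to 1.76) in the shared clusters, under the limit.

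SLC25A44, which carries branched-chain amino acids, had 16.1 CPM in NASH, 9.67 CPM in NASH-T and 11.9 CPM in Con, with a NASH-T over NASH ratio of 0.601 (0.491 to 0.733). In the shared clusters that ratio was 0.672 (0.511 to 0.889), just short of the limit. SLC25A15 was not called, with NASH-T over Con at 1.19 (1.08 to 1.31). Of the urea cycle enzymes, 2 of 6 measured were lower in that comparison (background over all genes 8.07%). They were ASS1 (argininosuccinate synthetase), at 0.658 (0.628 to 0.69), and ASL (argininosuccinate lyase), at 0.631 (0.586 to 0.678). The glutamate carrier SLC25A22 and the glycine carrier SLC25A38 were not called in the 3 comparisons.

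Of the adenine nucleotide carriers, SLC25A25 was low in NASH. It had 39.2 CPM in NASH, 66.1 CPM in NASH-T and 59.1 CPM in Con, with a ratio of 0.663 (0.601 to 0.732) for NASH over Con and 1.69 (1.53 to 1.85) for NASH-T over NASH. NASH over Con was 0.452 (0.361 to 0.562) in cluster 0, 0.726 (0.567 to 0.921) in cluster 1 and 0.54 (0.284 to 0.95) in cluster 3, so the level in NASH was lower in each shared cluster. SLC25A4 was not called, at 1.16 (1.08 to 1.24) in NASH over Con and 1.09 (1.01 to 1.18) in NASH-T over Con. SLC25A31, a further ADP/ATP carrier, known in humans and mice from testis, was called higher in NASH over Con, at 2.35 (1.03 to 6), on 26 UMIs in NASH, 19 in NASH-T and 8 in Con.

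The cofactor and nucleotide carriers were mostly level apart from SLC25A33. This pyrimidine nucleotide carrier had 61.8 CPM in NASH, 53.9 CPM in NASH-T and 36.1 CPM in Con. The ratio was 1.71 (1.54 to 1.9) for NASH over Con and 1.49 (1.34 to 1.67) for NASH-T over Con, just under the limit. In cluster 1 it was 1.56 (1.27 to 1.91) in NASH over Con and 1.71 (1.48 to 1.98) in NASH-T over Con. NASH over Con was 1.16 (0.895 to 1.51) in cluster 0 and 1.28 (0.8 to 1.98) in cluster 3, with intervals that hold 1. NASH-T over Con was 1.31 (1.06 to 1.62) in cluster 0 and 1.35 (0.948 to 1.91) in cluster 3. Over the shared clusters NASH over Con was 1.32 (1.13 to 1.53). SLC25A36 was called higher in NASH-T over NASH, at 2.35 (1.03 to 5.69), but thinned to 1000 UMIs per cell the ratio was 0.881 (0.0735 to 7.69). The coenzyme A carrier SLC25A42, SLC25A32 and the peroxisomal carrier SLC25A17 were not called.

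Of the carriers of less settled role, SLC25A34, SLC25A45 and SLC25A48 were called at least once. SLC25A48 had 16.3 CPM in NASH, 27.6 CPM in NASH-T and 29.1 CPM in Con, with a ratio of 0.559 (0.482 to 0.648) for NASH over Con and 1.69 (1.46 to 1.96) for NASH-T over NASH. In the shared clusters NASH over Con was 0.691 (0.558 to 0.85) and NASH-T over NASH 1.37 (1.11 to 1.69), both within 1.5-fold. SLC25A34 was higher in both HRDS libraries, at 4.13 CPM in NASH, 3.82 CPM in NASH-T and 1.82 CPM in Con, with ratios of 2.28 (1.45 to 3.69) for NASH over Con and 2.1 (1.3 to 3.48) for NASH-T over Con. In the shared clusters its NASH over Con ratio was 1.51 (0.758 to 2.93), with an interval that holds 1. SLC25A45 had 78 UMIs in NASH, 46 in NASH-T and 31 in Con and was called in NASH over Con, at 1.82 (1.18 to 2.85), with 1.74 (0.962 to 3.11) in the shared clusters.

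The iron carriers were not called. SLC25A28 had ratios of 1.17 (1.12 to 1.21) in NASH over Con and 1.25 (1.2 to 1.29) in NASH-T over Con. SLC25A37 (mitoferrin-1, the form known from red-cell precursors) had 0.837 (0.769 to 0.911) in NASH over Con and 0.781 (0.712 to 0.856) in NASH-T over Con. The pair stood on opposite sides of 1 in both comparisons, which share the Con library. Of 11 iron-sulfur and haem genes measured, HAMP, the gene of the iron hormone hepcidin, was higher in NASH over Con, at 2.12 (2.04 to 2.21), and in NASH-T over Con, at 2 (1.92 to 2.08). The background over all genes was 5.24% and 4.63%. HMOX1 (haem oxygenase) was lower in NASH over Con, at 0.5 (0.383 to 0.65), against a background of 11.3%. ALAS1 (the first enzyme of haem synthesis) was lower in NASH-T over Con, at 0.586 (0.552 to 0.622), against a background of 8.07%. SLC25A20 was not called, at 1.09 (1.01 to 1.18) in NASH and 1.05 (0.965 to 1.14) in NASH-T over Con.

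Other genes of mitochondrial oxidation and transport were read beside the carriers in hepatocyte-like cells. None of 22 measured oxidative phosphorylation subunits was called in the 3 comparisons. Their median log2 ratio was -0.12 in NASH over Con, -0.14 in NASH-T over Con and 0.046 in NASH-T over NASH. Over all genes, 5.24% were called higher and 11.3% lower in NASH over Con, and 4.63% and 8.07% in NASH-T over Con. In NASH-T over NASH the shares were 8.08% and 4.92%. Of the acylcarnitine system, 0 of 8 were called in NASH over Con. In NASH-T over Con, 2 were higher, HADHA at 1.54 (1.42 to 1.68) and HADHB at 1.54 (1.41 to 1.69), the subunits of the trifunctional protein of fatty acid oxidation.

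MPC1, a subunit of the mitochondrial pyruvate carrier, which belongs to another family, had 42.5 CPM in NASH, 80.2 CPM in NASH-T and 73.6 CPM in Con. Its ratio was 0.577 (0.527 to 0.633) for NASH over Con and 1.89 (1.73 to 2.06) for NASH-T over NASH, lower in NASH as were SLC25A25, SLC25A29 and SLC25A48. It was the 1 gene called among 13 other inner membrane carriers measured in NASH over Con (background over all genes 5.24% higher and 11.3% lower). SFXN2, at 0.57 (0.381 to 0.845), and SFXN4, at 0.64 (0.506 to 0.807), were lower in NASH-T over Con (background 8.07%). GOT1, the cytosolic aspartate aminotransferase of the malate-aspartate shuttle, was higher there, at 1.84 (1.71 to 1.99). TOMM22, a receptor of the outer membrane import pore, was higher in NASH over Con, at 2.11 (1.32 to 3.47).

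Position along the liver lobule was read from the ratio of cluster 0 to cluster 1. Summed periportal markers stood at 10.3 times the pericentral ones in cluster 0 and at 2.62 times in cluster 1. The sums add CPM of different genes, so they are compared between clusters only. SLC1A2, of the pericentral list, was higher in cluster 0, at 1.58 in NASH, 1.33 in NASH-T and 1.37 in Con. SDS, of the periportal list, was lower there in Con, at 0.503 (0.263 to 0.908). The other markers lay on the side of their list in every library. Of 25 members measured in NASH, 1 was higher in cluster 0 (background 4.6%) and 3 were lower (4.77%). Of 28 in NASH-T, 2 were higher (5.8%) and 1 lower (3.98%), and of 28 in Con, 2 were higher (4.37%) and 1 lower (4.26%). The clusters were made without SLC25A genes.

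SLC25A12 was lower in cluster 0 in each library. It had 29.4 CPM in cluster 0 and 77.3 CPM in cluster 1 of NASH, 18.4 and 48.7 CPM in NASH-T, and 17.4 and 45.7 CPM in Con. The ratio was 0.38 (0.29 to 0.494) in NASH, 0.379 (0.302 to 0.47) in NASH-T and 0.38 (0.294 to 0.486) in Con, with intervals that overlap. Between the NASH clusters 22 (periportal markers at 10.5 times the pericentral ones) and 13 (2.58 times) it was 0.27 (0.224 to 0.324).

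SLC25A15 lay on the other side, in the zone where the urea cycle is known to be most active. Cluster 0 over cluster 1 was 1.69 (1.31 to 2.19) in NASH, 1.8 (1.57 to 2.06) in NASH-T and 1.77 (1.52 to 2.07) in Con, and cluster 22 over 13 was 1.75 (1.52 to 2.02). SLC25A25 was higher in cluster 0 of NASH-T, at 1.61 (1.41 to 1.83), and of Con, at 1.83 (1.58 to 2.12). In NASH the same ratio was 1.14 (0.849 to 1.53) between clusters 0 and 1, and 2.28 (1.92 to 2.7) between clusters 22 and 13. Of 28 members measured between clusters 22 and 13, 3 were higher (background 5.86%) and 1 was lower (4.96%), the other higher member being SLC25A44 at 1.76 (1.35 to 2.29). In NASH, SLC25A33 and SLC25A48 were lower in cluster 0 than in cluster 1, at 0.658 (0.507 to 0.853) and 0.652 (0.433 to 0.973). Cluster 22 over 13 was 0.684 (0.594 to 0.786) for SLC25A33 and 1.05 (0.789 to 1.4) for SLC25A48, neither of them called.

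In the other classes few carriers were called, and on few UMIs. In T- or NK-cell-like cells NASH over Con had 0 of 21 members higher (background 3.58%) and 1 lower (3.58%). NASH-T over Con had 0 of 22 members higher (background 4.21%) and 2 lower (3.4%), and NASH-T over NASH had 1 of 21 members higher (background 4.32%) and 0 lower (2.94%). SLC25A43 was low in both HRDS libraries, at 6.35 CPM in NASH, 6.99 CPM in NASH-T and 14.3 CPM in Con. Its ratio was 0.445 (0.21 to 0.88) in NASH over Con, on 12 against 34 UMIs, and 0.489 (0.275 to 0.855) in NASH-T over Con. SLC25A27, an uncoupling-type carrier, was lower in NASH-T over Con, at 0.571 (0.378 to 0.859). SLC25A17 was higher in NASH-T over NASH, at 1.78 (1.05 to 3.17).

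In macrophage-like cells NASH over Con had 0 of 23 members higher (background 3.54%) and 0 lower (4.62%), NASH-T over Con had 1 of 23 members higher (background 3.32%) and 0 lower (6.15%), and NASH-T over NASH had 0 of 22 members higher (background 4.13%) and 1 lower (5.39%). The member higher in NASH-T over Con was SLC25A10, with 5.59 CPM in NASH-T against 2.24 CPM in Con, from 25 and 9 UMIs. These levels were 33.3% (NASH-T) and 8.65% (Con) of those in hepatocyte-like cells. Hepatocyte transcripts reached up to 59.0% (NASH-T) and 61.0% (Con) of their hepatocyte-like level in the same class. Their medians were 23.1% (NASH-T) and 23.5% (Con). Their part in the SLC25A10 result was not tested. With called doublets kept the ratio was 1.59 (0.815 to 3.21), and the call was lost. SLC25A33 had 21.9 CPM in NASH-T against 35 CPM in NASH, a ratio of 0.625 (0.472 to 0.827).

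In endothelial-like cells NASH over Con had 0 of 16 members higher (background 3.78%) and 0 lower (6.46%), NASH-T over Con had 0 of 18 members higher (background 4.37%) and 2 lower (5.91%), and NASH-T over NASH had 0 of 18 members higher (background 4.86%) and 2 lower (3.96%). SLC25A47 had 49 CPM in NASH, 31.7 CPM in NASH-T and 56.5 CPM in Con endothelial-like cells. These levels are 4.62% to 9.70% of those in hepatocyte-like cells, under the share reached by ALB. Its NASH-T over Con ratio was 0.56 (0.372 to 0.852), but 0.891 (0.626 to 1.29) with called doublets kept and 1.15 (0.589 to 2.43) after thinning. SLC25A17 was lower in NASH-T over Con, at 0.479 (0.238 to 0.981) on 21 against 16 UMIs, and thinning turned the ratio to 1.5 (0.404 to 8.27). SLC25A27 and SLC25A47 were lower in NASH-T over NASH, at 0.5 (0.284 to 0.882) and 0.646 (0.436 to 0.964), and thinning turned the SLC25A47 ratio to 1.21 (0.649 to 2.38).

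The calls in stellate- or fibroblast-like and B cell-like cells were chosen for description after their values were seen. In stellate- or fibroblast-like cells NASH over Con had 2 of 14 members higher (background 7.39%) and 0 lower (5%), NASH-T over Con had 0 of 13 members higher (background 4.53%) and 1 lower (4.68%), and NASH-T over NASH had 0 of 14 members higher (background 4.3%) and 2 lower (7.04%). SLC25A13 had 74.9 CPM in NASH against 17.6 CPM in Con, from 61 and 10 UMIs, a ratio of 4.26 (2.16 to 9.32). Of the NASH UMIs, 60 lay in cluster 20 and 1 in cluster 16. Hepatocyte transcripts moved with it in these cells: 8 of 12 were higher in NASH over Con, with a median log2 ratio of 0.67. Their summed level was 4256 CPM in NASH, 3454 CPM in NASH-T and 2886 CPM in Con, none of the 12 was at 0, and their part in the result was not tested. With called doublets kept the SLC25A13 ratio was 1.35 (1.07 to 1.72). SLC25A37 was the other member higher in NASH over Con, at 1.78 (1.01 to 3.27). SLC25A47 was lower in NASH-T over Con, at 0.474 (0.261 to 0.844), and 1 (0.367 to 2.87) after thinning. In NASH-T over NASH, SLC25A13 was lower, at 0.28 (0.151 to 0.492), as were 6 of the 12 hepatocyte transcripts, and SLC25A21 was lower on 3 against 17 UMIs.

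In B cell-like cells NASH over Con had 0 of 5 members higher (background 3.59%) and 0 lower (4.14%), NASH-T over Con had 1 of 7 members higher (background 4.57%) and 0 lower (3.94%), and NASH-T over NASH had 0 of 7 members higher (background 5.12%) and 0 lower (4.89%). The member called was SLC25A3, on 20 UMIs in NASH-T against 4 in Con. With called doublets kept its ratio was 2.57 (0.942 to 8.72), an interval that holds 1.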

How the data were processed

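Each of the 3 libraries, 1 per group and each a pool of 5 goats, was deposited as a matrix of UMI counts per gene and cell. The authors made these counts with Cell Ranger 7.0.0, per the submitters' processing notes; the genome build is not given in the sources used here, so no coordinates are printed. The deposited values are whole numbers, used as they are. The matrices hold 8731 NASH, 9375 NASH-T and 7485 Con barcodes and 31195014, 29572158 and 25506238 UMIs in that order of libraries.

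Barcodes under 200 genes, under 500 UMIs or over 20% mitochondrial UMIs were dropped, and doublets called by Scrublet (342 NASH, 459 NASH-T, 284 Con) were removed. The filter dropped 0 NASH, 2 NASH-T and 1 Con barcodes. The median mitochondrial share of UMIs in kept cells was 0.0725% in NASH, 0.154% in NASH-T and 0.101% in Con. Cells were clustered with scanpy 1.11.5 (Leiden, resolution 0.8, 25 clusters) with SLC25A genes left out of the variable genes. Clusters were named from marker lists; the naming rules, the merging of T and NK cells and of smooth muscle with stellate cells, and 1 mixed hepatocyte and endothelial cluster set aside, were decided after the clusters were seen. For each library and class, summed UMIs were scaled by that class's total UMIs (CPM); levels carry exact Poisson intervals, and ratios carry exact conditional binomial intervals. The rule for calls, applied to all genes, gives the background. The rule was tried on simulated counts that held counting error only. That trial cannot show how the rule does with spread between cells, animals or libraries. Members and lists were chosen with earlier results of these data known. Members were named when called, when among the 10 highest in hepatocyte-like cells, or at 3 times the next class in every library. RefSeq (ARS1.2) shared the symbol of 36 of the 38 members and was used for neighbours. Counts cover all 38 members, of which 1 is not reported here by itself. Alternatives changed the doublet removal, cell filter, depth, clustering, clusters used, scaling and limits.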

Additional observations from a re-analysis of the deposited data

Results flagged for a closer look

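SLC25A10, the dicarboxylate carrier, lay on opposite sides of 1 in macrophage-like and hepatocyte-like cells when NASH-T was set over Con. In macrophage-like cells the ratio was 2.5 (1.13 to 6.09), from 25 UMIs in NASH-T and 9 in Con, and in hepatocyte-like cells it was 0.649 (0.551 to 0.764), from 255 UMIs in NASH-T and 370 in Con. In macrophage-like cells with called doublets kept it was 1.59 (0.815 to 3.21). With doublets removed, the SLC25A10 levels in macrophage-like cells were 33.3% (NASH-T) and 8.65% (Con) of the hepatocyte-like ones. The source of these UMIs was not tested. With 1 library a group, the difference between the classes was not tested.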

How the results depend on the processing

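Of 36 single ratios called, 20 of them in hepatocyte-like cells, 5 turned direction under an alternative, all with cells thinned to 1000 UMIs: SLC25A17 (1.5) and SLC25A47 (1.15) in endothelial-like cells and SLC25A47 (1.00) in stellate- or fibroblast-like cells for NASH-T over Con, and SLC25A47 in endothelial-like cells (1.21) and SLC25A36 in hepatocyte-like cells (0.881) for NASH-T over NASH. The cause was not tested. Counts of members called moved as follows. For hepatocyte-like cells, shares over all genes are given above for the shared clusters. They are also given for NASH over Con and NASH-T over Con with the median of all genes. The other counts have no such share beside them and are not read as results about the members. In hepatocyte-like cells, NASH over Con higher (6) became 2 thinned, 1 in shared clusters and 2 at 2-fold, and lower (3) became 1 at 2-fold. NASH-T over Con higher (1) became 2 with at least 500 genes and 1000 UMIs, 0 thinned, 2 in shared clusters, 4 divided by the median of all genes and 2 without the 50 most abundant genes; lower (2) became 1 with that median and 1 at 2-fold. NASH-T over NASH higher (4) became 2 in shared clusters and 1 at 2-fold, and lower (4) became 1 in each. In the other classes together, NASH over Con higher (2) became 1 under the stricter cell filter, thinned, with the median and at 2-fold. Lower (1) became 4 with doublets kept, 2 under the stricter filter, 2 thinned, 0 at 50 UMIs and 3 at 1 UMI. NASH-T over Con higher (2) became 0 with doublets kept, 1 thinned and 0 at 50 UMIs, and lower (5) became 2 thinned and 3 at 2-fold. NASH-T over NASH higher (1) became 3 with doublets kept, 0 thinned, 3 at resolution 1.2, 2 at 1 UMI and 0 at 2-fold, and lower (5) became 3 under the stricter filter, 0 thinned and 2 at 2-fold. All 36 ratios kept their direction and stayed near their value with resolution 1.2, SLC25A genes allowed, the stricter filter, the other class total and the median. Thinning leaves few UMIs per member, which limits its counts. No paired analysis was possible because each group has 1 library.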

Other observations

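Relatives of the family under other names differed sharply between classes, in values chosen after they were seen. UCP1, known in mammals as the heat-producing uncoupling protein of brown fat, had 283 CPM in NASH, 203 CPM in NASH-T and 241 CPM in Con T- or NK-cell-like cells, against 0.504 CPM in NASH, 1.51 CPM in NASH-T and 1.26 CPM in Con hepatocyte-like cells. Within the T- or NK-cell-like clusters it was 356 CPM in NASH, 294 CPM in NASH-T and 318 CPM in Con in cluster 9, led by THEMIS and CD6, and 68.6 CPM in NASH, 70.2 CPM in NASH-T and 100.4 CPM in Con in cluster 10, led by ADGRG1. The identity of this gene rests on the deposited symbol and was not checked against a genome. UCP2, a relative known from immune cells in mice and humans, had 54.3 CPM in NASH, 48.1 CPM in NASH-T and 42.2 CPM in Con macrophage-like cells, against 4.76 CPM in NASH, 6.38 CPM in NASH-T and 10.1 CPM in Con T- or NK-cell-like cells. MTCH1, an outer membrane relative, had 144 CPM in NASH, 206 CPM in NASH-T and 141 CPM in Con endothelial-like cells, against 16.3 CPM in NASH, 15.7 CPM in NASH-T and 16 CPM in Con hepatocyte-like cells.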
